A study of Homo sapiens with 8 samples.

Results

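Long noncoding RNAs (lncRNAs) that are associated with prostate cancer were examined in LNCaP cells during treatment with recombinant asporin (ASPN). The set was defined by name as PCA3, PCAT1, SCHLAP1, PCGEM1, ARLNC1, DRAIC, PCAT14, MALAT1 and NEAT1. All 9 were present among the 36474 genes of the count table, of which 9837 were lncRNA genes. LNCaP is an established human prostate carcinoma line that responds to androgen, and ASPN is a small leucine-rich proteoglycan that fibroblasts secrete into the matrix. Cells in every group were starved of serum and calcium for 6 to 12 h and received recombinant human ASPN at 100 ng/mL for 0, 12 or 24 h. The groups comprised 2 libraries at 0 h, 3 at 12 h and 3 at 24 h, and the question was whether any of the 9 transcripts changed in abundance with time on ASPN. The cells are a single line, and no library held for 12 or 24 h without ASPN was analysed here, so ASPN and time in the medium cannot be told apart in any comparison below.

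lncRNAs are transcribed and usually spliced like mRNAs but are not known to encode proteins. Several act in the nucleus by binding chromatin regulators or by building nuclear bodies, and many are restricted to a single tissue. PCA3, PCAT1, SCHLAP1, PCGEM1, ARLNC1 and PCAT14 are known for high expression in prostate tumors, PCA3 being the basis of a urine test. ARLNC1, PCGEM1 and PCAT14 have been described as androgen-regulated, whereas DRAIC has been described as repressed by androgen and as restraining invasion. MALAT1 and NEAT1 are abundant in most tissues, where MALAT1 resides in nuclear speckles and NEAT1 forms the scaffold of paraspeckles, which are nuclear bodies that hold RNA-binding proteins.

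The 3 prime ends of MALAT1 and NEAT1 show how both RNAs can be stable without an ordinary poly(A) tail, and they are shown because the libraries were made from mRNA. Both genes are on chromosome 11 (GRCh38, plus strand), where NEAT1 spans 65422774 to 65445540 and MALAT1 spans 65497688 to 65506516 in the count table. In the lines below, capitals mark the 3 runs of bases, TTTCTTTT, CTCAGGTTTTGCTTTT and AAAAAGCAAAA, that MALAT1 and the long NEAT1 transcript share in this order on the plus strand. The MALAT1 stretch is chr11:65506007-65506116, which ends where an annotated tRNA-like small RNA of 57 bases begins. The NEAT1 stretch is the last 100 bases of the long transcript, chr11:65445441-65445540.
MALAT1: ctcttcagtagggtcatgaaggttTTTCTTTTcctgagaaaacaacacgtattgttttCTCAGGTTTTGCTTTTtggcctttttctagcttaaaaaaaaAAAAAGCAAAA
NEAT1 long: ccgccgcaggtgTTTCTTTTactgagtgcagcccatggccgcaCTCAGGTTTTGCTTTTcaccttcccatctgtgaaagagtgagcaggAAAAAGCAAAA
The 3 runs in order, with gaps of at most 60 bases, were found in 2 of 62700 annotated genes (0.00319%, GENCODE release 44), MALAT1 and NEAT1 themselves. They were chosen as the longest run that these 2 stretches share and the longest shared before and after it. Finding both genes was therefore given in advance, and the search shows only that no other annotated gene holds the runs. The runs are the U-rich and A-rich tracts that are known to fold into a triple helix. The short NEAT1 transcripts are known to end differently, at a poly(A) site. Only the short transcript that ends at the highest coordinate was examined. Its last 60 bases, chr11:65426454-65426513, hold the poly(A) signal AATAAA in capitals.
NEAT1 short: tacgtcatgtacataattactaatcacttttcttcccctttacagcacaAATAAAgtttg
AATAAA was present in the last 60 bases of 28.6% of all annotated transcripts. Of the 9 annotated NEAT1 transcripts, 8 are short, the longest spanning 3684 bases against 22743 bases for the long form. The counts were made per gene, so the short and long forms cannot be told apart below.

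The 8 libraries held 73406825 to 96962135 counts, and 3 counts corresponded to 0.0310 to 0.0413 CPM (counts scaled by TMM to a common library size). The lncRNA genes took 1.34% to 1.39% of all counts and the 9 transcripts took 0.0636% to 0.0783%. LNCaP identity was checked on marker genes. All 11 luminal prostate markers were detected, with summed levels of 5437 to 5532 CPM at 0 h, 6011 to 6047 CPM at 12 h and 5984 to 6182 CPM at 24 h. The 3 basal and 3 immune markers in the table summed to at most 0.248 and 0.220 CPM. The 6 fibroblast markers summed to 21.2 to 23.8 CPM, most of it COL1A1 (group means 19.1 to 20.3 CPM). Group means were 1.20 to 1.58 CPM for LUM, 0.730 to 0.905 for PDGFRB and 0.494 to 0.586 for COL3A1. ASPN and DCN had at most 3 and 5 counts in a library. The 3 neuroendocrine markers in the table summed to 2.88 to 3.16 CPM at 0 and 12 h and to at least 1.92 CPM at 24 h, where all libraries were lower. The part of these markers in the results was not tested.

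The 9 lncRNAs differed widely in level. Per kilobase of exon (union of all annotated exons), mean CPM over the 8 libraries was 43.2 for MALAT1, 24.6 for SCHLAP1, 7.60 for NEAT1, 2.61 for PCAT1 and 1.23 for DRAIC. It was 0.136 for PCGEM1, 0.0264 for PCA3, 0.00422 for ARLNC1 and 0.00172 for PCAT14. The libraries of neighbours in this order did not overlap from MALAT1 down to PCGEM1. PCGEM1 (0.0402 to 0.215 per kilobase) overlapped PCA3 (0.0131 to 0.0439), and PCA3 overlapped ARLNC1 (0 to 0.0154), which in turn overlapped PCAT14 (0 to 0.00694). Among 9784 lncRNA genes ranked per kilobase, MALAT1 was 8th, SCHLAP1 18th, NEAT1 110th, PCAT1 450th and DRAIC 881st, whereas PCGEM1 was 3231st, PCA3 5540th, ARLNC1 8078th and PCAT14 9001st. The length used mattered for genes with many transcripts. NEAT1 was divided by 22767 bases, although 8 of its 9 annotated transcripts span at most 3684 bases. By a short length its level and rank would be higher and its place beside SCHLAP1 and MALAT1 could change, which was not computed. How fully these mRNA libraries recovered MALAT1 and the long NEAT1 form was not tested. With the longest single transcript in place of the exon union, PCAT1 rose to 24.3 CPM per kilobase, beside SCHLAP1 at 24.6, DRAIC to 4.28, PCA3 to 0.0953 and ARLNC1 to 0.0103, and MALAT1 was at 36.5.

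**Figure D1:**
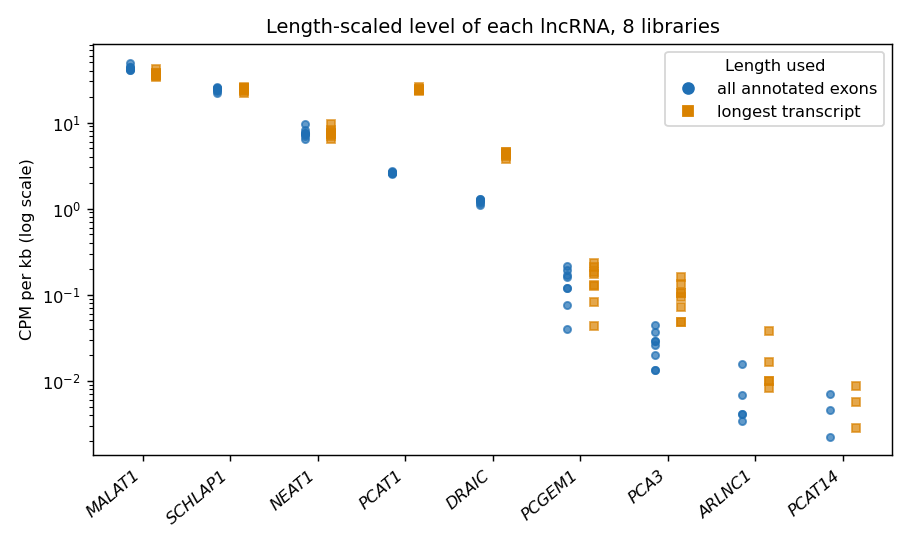
Level of each lncRNA in CPM per kilobase of exon on a log axis, with a point for each of the 8 libraries, as circles for the union of annotated exons and squares for the longest transcript, and libraries at 0 not drawn. By the exon union, MALAT1 and SCHLAP1 lie at 43.2 and 24.6 on average, whereas PCGEM1, PCA3, ARLNC1 and PCAT14 lie below 1 in every library by either length.

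Of the 9 lncRNAs, 7 had enough counts for the test (edgeR quasi-likelihood F test, fitted over 21071 genes), and ARLNC1 and PCAT14 did not. None of the 7 was called, which required an adjusted p (Benjamini-Hochberg, over all tested genes) no higher than 0.05 together with a change of 1.5-fold or more, in any of the 3 comparisons. None passed on the adjusted p alone, which 11.6%, 16.3% and 2.72% of all tested genes and 2.52%, 5.09% and 0.636% of the tested lncRNA genes did. In the same fit 1.05% of all genes were called between 12 h and 0 h, 2.45% between 24 h and 0 h and 0.180% between 24 h and 12 h. Among the 4402 tested lncRNA genes the shares were 0.954%, 2.54% and 0.250%, so 0 of 7 is near the background. At an unadjusted p under 0.05, SCHLAP1 differed in both comparisons with 0 h and PCA3 between 24 h and 12 h. The median absolute log2 fold change of the 7 was 0.086, 0.055 and 0.050 in the 3 comparisons, beside 0.15, 0.17 and 0.10 for all tested genes. Both comparisons with 0 h use the same 2 libraries at 0 h. For other genes below, rose and fell refer to an adjusted p of at most 0.05 whatever the fold, and a value is called lost under an alternative where it no longer reaches that.

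**Figure D2:**
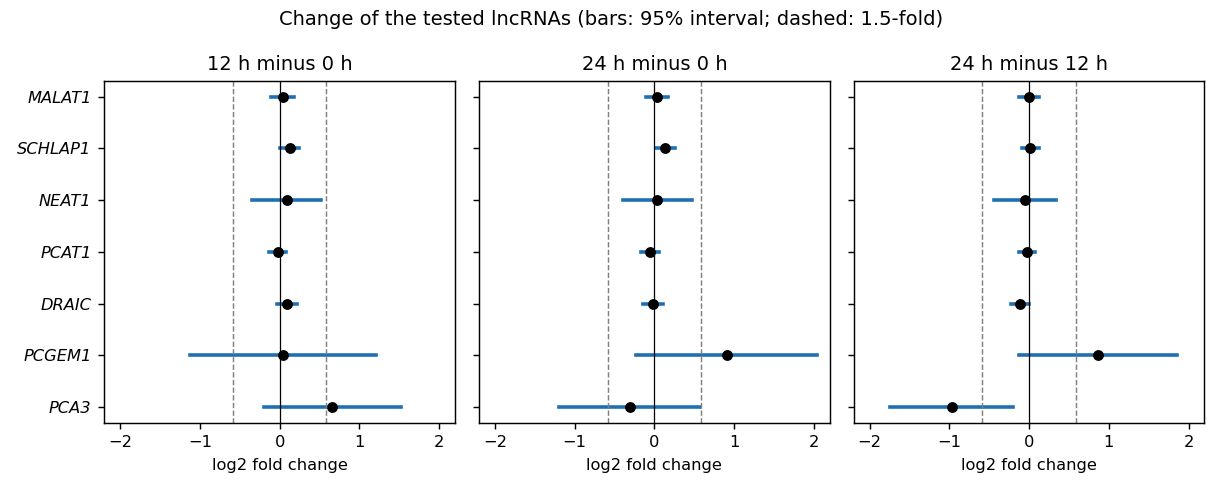
Log2 fold change of the 7 tested lncRNAs in each comparison, with points for the estimates and bars for 95% confidence intervals, and dashed lines at a 1.5-fold change. The intervals of PCA3, PCGEM1 and NEAT1 are the widest, and those of SCHLAP1 in both comparisons with 0 h lie just above 0.

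SCHLAP1, which has been described as antagonizing the SWI/SNF chromatin remodeling complex and as marking aggressive disease, was higher in all 6 libraries with ASPN than in both libraries at 0 h, by a small margin. In RNA from a whole culture, more RNA per cell and more cells that express a gene cannot be told apart. SCHLAP1 was at 33.8 and 32.0 CPM at 0 h, at 35.1, 36.2 and 36.4 CPM at 12 h, and at 37.4, 34.7 and 36.6 CPM at 24 h. The libraries at 0 h were the lowest 2, and those at 12 and 24 h overlapped. The means were 32.9 ± 1.30 CPM at 0 h (SD, n = 2), 35.9 ± 0.692 at 12 h (SD, n = 3) and 36.3 ± 1.37 at 24 h (SD, n = 3). The log2 fold change was 0.13 at 12 h (95% CI 0.0072 to 0.25, edgeR adjusted p = 0.179) and 0.14 at 24 h (0.020 to 0.26, adjusted p = 0.108). Neither passed the threshold. Groups that did not overlap were common, at 36.9% of all genes between 12 h and 0 h and 43.2% between 24 h and 0 h (25.6% and 29.2% of lncRNA genes). With offsets corrected for GC content and length the values were 0.17 (adjusted p = 0.0305) and 0.19 (adjusted p = 0.00714), which pass on the adjusted p but stay under a fold of 1.5.

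SCHLAP1 lies on chromosome 2 (180692104 to 180916939, plus strand), and 212 bases (14.8%) of its exons are also exon of AC009478.1, an lncRNA gene on the opposite strand. Reads from the shared stretch can belong to either gene when the strand is not counted, and the strand option was not stated. AC009478.1 had only 91 to 180 counts against 2325 to 3403 for SCHLAP1. AC009478.1 moved the opposite way, with a log2 fold change of -0.67 (SE 0.21, edgeR adjusted p = 0.0370) at 12 h and -0.55 (SE 0.21, adjusted p = 0.0809) at 24 h. The 12 h value was lost in 4 of 15 alternatives, those that left out a library at 0 h (adjusted p 0.0523 and 0.391), 12 h replicate 1 (0.0736) or 12 h replicate 3 (0.110).

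PCA3, transcribed from chromosome 9 (76691980 to 76863307, plus strand) antisense to the tumor suppressor PRUNE2, had only 14 to 48 counts per library. PCA3 was at 0.284 and 0.371 CPM at 0 h, at 0.622, 0.404 and 0.527 CPM at 12 h, and at 0.407, 0.186 and 0.191 CPM at 24 h. All 12 h libraries were above both 0 h libraries, a lack of overlap found for 36.9% of all genes and 25.6% of lncRNA genes. At 24 h, replicate 1 reached the level of 12 h replicate 2 while replicates 2 and 3 were the lowest of all. Summed counts were 52 at 0 h, 130 at 12 h and 69 at 24 h, which correspond to 0.323 CPM (exact Poisson 95% interval 0.242 to 0.424), 0.513 (0.428 to 0.609) and 0.264 (0.206 to 0.334). These intervals cover counting error only. The log2 fold change between 24 h and 12 h was -0.97 (95% CI -1.74 to -0.20, edgeR adjusted p = 0.203), and it missed the threshold. It was 0.66 (SE 0.42, adjusted p = 0.369) between 12 h and 0 h and -0.31 (SE 0.44, adjusted p = 0.718) between 24 h and 0 h. Leaving out libraries, that last value was -0.79 without 24 h replicate 1 and -0.50 without 0 h replicate 1, and it was -0.10 without 24 h replicate 2, -0.14 without 24 h replicate 3 and -0.11 without the unnumbered 0 h library.

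PRUNE2 covers the PCA3 locus on the opposite strand, and 1060 bases (7.48%) of PCA3 exons are also PRUNE2 exon. PRUNE2 had 26464 to 43142 counts per library, so PCA3 amounted to 0.509 to 1.51 counts per 1000 PRUNE2 counts. PRUNE2 was at 423 and 410 CPM at 0 h, at 413, 414 and 494 CPM at 12 h, and at 399, 366 and 360 CPM at 24 h. Every 24 h library was below every other library for PRUNE2. Groups did not overlap for 43.2% of all genes between 24 h and 0 h and for 19.6% between 24 h and 12 h. PRUNE2 fell between 12 h and 24 h by 0.23 on the log2 scale (SE 0.056, edgeR adjusted p = 0.0265), a value that was lost in 9 of 16 alternatives (adjusted p 3.99e-06 to 0.166). These were DESeq2 (0.117), a fit to 12 and 24 h alone (0.111), the replicate block (0.157), and leaving out either 0 h library (0.160 and 0.143), 12 h replicate 1 (0.109) or 3 (0.166), or 24 h replicate 2 (0.0927) or 3 (0.106). Both PCA3 and PRUNE2 were lowest in 24 h replicates 2 and 3. How much of the PCA3 count comes from PRUNE2 transcripts was not tested.

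**Figure D3:**
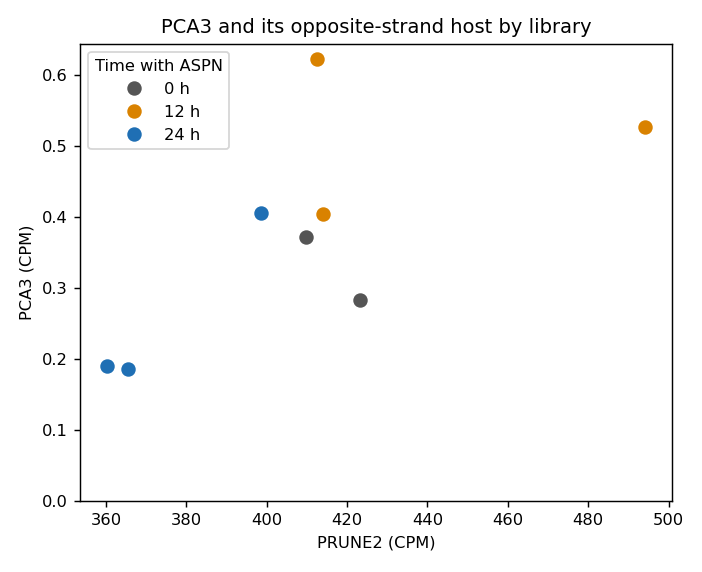
PCA3 against PRUNE2 in CPM, with a point for each library colored by time with ASPN. The lower left pair are 24 h replicates 2 and 3, and the rightmost point is 12 h replicate 3 with PRUNE2 at 494 CPM.

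PCGEM1, a prostate-restricted lncRNA on chromosome 2 (192749845 to 192776899, plus strand), had 24 and 5 counts at 0 h, 10, 18 and 18 counts at 12 h, and 30, 28 and 27 counts at 24 h. These correspond to 0.272 and 0.0688 CPM, to 0.130, 0.202 and 0.206 CPM, and to 0.330, 0.290 and 0.368 CPM. The 24 h libraries were the highest 3, but the libraries at 0 h differed from each other more than the later groups did. The mean was 0.171 ± 0.144 CPM at 0 h (SD, n = 2), 0.179 ± 0.0430 at 12 h (SD, n = 3) and 0.329 ± 0.0390 at 24 h (SD, n = 3). PCGEM1 differed by a log2 value of 0.90 between 24 h and 0 h (SE 0.56, edgeR adjusted p = 0.315) and 0.86 between 24 h and 12 h (SE 0.49, adjusted p = 0.459). Groups did not overlap for 43.2% and 19.6% of all genes in these comparisons. Between 12 h and 0 h the log2 value of PCGEM1 was 0.045 (SE 0.57, edgeR adjusted p = 0.976). The 24 h against 0 h value rested on the 0 h libraries, at 2.23 (adjusted p = 0.0960) without replicate 1 and 0.27 (adjusted p = 0.837) without the other library.

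ARLNC1 and PCAT14, both described as androgen-regulated, had at most 8 and 3 counts in a library. ARLNC1 had 2 counts in each library at 0 h, 8, 0 and 4 counts at 12 h, and 0, 0 and 2 counts at 24 h. Its summed counts of 4, 12 and 2 correspond to 0.0249 CPM (exact Poisson 95% interval 0.00678 to 0.0637), 0.0473 (0.0245 to 0.0827) and 0.00766 (0.000927 to 0.0277). PCAT14 had 3 and 0 counts at 0 h, 0, 2 and 0 at 12 h, and 1, 0 and 0 at 24 h. With no filter on low counts, the edgeR adjusted p over the 3 comparisons was 0.725 to 0.875 for ARLNC1 and 0.776 to 0.956 for PCAT14. A change in either gene was not detectable at this depth, and no fold change is given. Of the ARLNC1 exon bases, 33.7% are shared with RP11-314O13.2 on the same strand, which had 0 or 1 count per library. How reads from shared bases were counted was not stated. The count, level and rank of ARLNC1 may therefore be too low, which was not tested.

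PCAT1, a chromosome 8 lncRNA that has been described as repressing BRCA2 and promoting proliferation, had the smallest standard errors of the 7 tested lncRNAs. PCAT1 was at 49.4 and 49.3 CPM at 0 h, at 46.2, 51.1 and 48.1 CPM at 12 h, and at 47.9, 47.3 and 47.3 CPM at 24 h. The 12 h libraries spanned those at 0 h. All 24 h libraries were below both 0 h libraries, a lack of overlap found for 43.2% of all genes and 29.2% of lncRNA genes. The 24 h to 0 h fold was 0.963 (95% CI 0.892 to 1.04, edgeR adjusted p = 0.582), and the 12 h to 0 h fold was 0.982 (0.910 to 1.06, adjusted p = 0.834). A change of 1.5-fold in either direction therefore lies outside both intervals. PCAT1 shares exon bases with LRATD2 on the opposite strand (7.62% of its exon bases) and with POU5F1B on the same strand (4.59%). LRATD2, which had 7054 to 10326 counts, fell by 0.24 at 12 h (SE 0.050, edgeR adjusted p = 0.00160) and by 0.21 at 24 h (SE 0.050, adjusted p = 0.00244) on the log2 scale, and both were lost without 0 h replicate 1 (0.0658 and 0.0575). BRCA2 rose by a log2 value of 0.25 at 12 h (SE 0.079, adjusted p = 0.0350) and was at 0.20 at 24 h (SE 0.079, adjusted p = 0.0952). The 12 h value of BRCA2 was lost in a fit to 0 and 12 h alone (0.0716) and without either 0 h library (0.268 and 0.0796), 12 h replicate 2 (0.136) or 3 (0.131), or 24 h replicate 3 (0.0534).

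DRAIC, transcribed from chromosome 15 (69462921 to 69843120, plus strand), was at 39.0 and 36.7 CPM at 0 h, at 41.0, 38.9 and 40.8 CPM at 12 h, and at 34.3, 38.1 and 39.6 CPM at 24 h. The groups overlapped in every comparison, and 24 h replicate 1 was the lowest library. The log2 fold change was 0.089 at 12 h (95% CI -0.037 to 0.21, edgeR adjusted p = 0.421) and -0.021 at 24 h (-0.15 to 0.10, adjusted p = 0.883), both against 0 h. Between 24 h and 12 h DRAIC differed by -0.11 (-0.22 to 0.0026, adjusted p = 0.382). An lncRNA gene on the opposite strand, RP11-279F6.2, shares 2.00% of DRAIC exon bases. It had 5 and 2 counts at 0 h, 26, 13 and 28 at 12 h, and 17, 24 and 6 at 24 h. All 12 and 24 h libraries of RP11-279F6.2 were above both at 0 h, where groups did not overlap for 36.9% and 43.2% of all genes. Its log2 fold change was 2.59 at 12 h (SE 0.77, edgeR adjusted p = 0.0241) and 1.98 by 24 h (SE 0.78, adjusted p = 0.0848). The 12 h call was lost in 4 of 13 alternatives, without either library at 0 h (adjusted p 0.125 and 0.123) and without 12 h replicate 1 (0.0684) or 3 (0.0673). DRAIC itself had 2667 to 3681 counts.

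**Figure D4:**
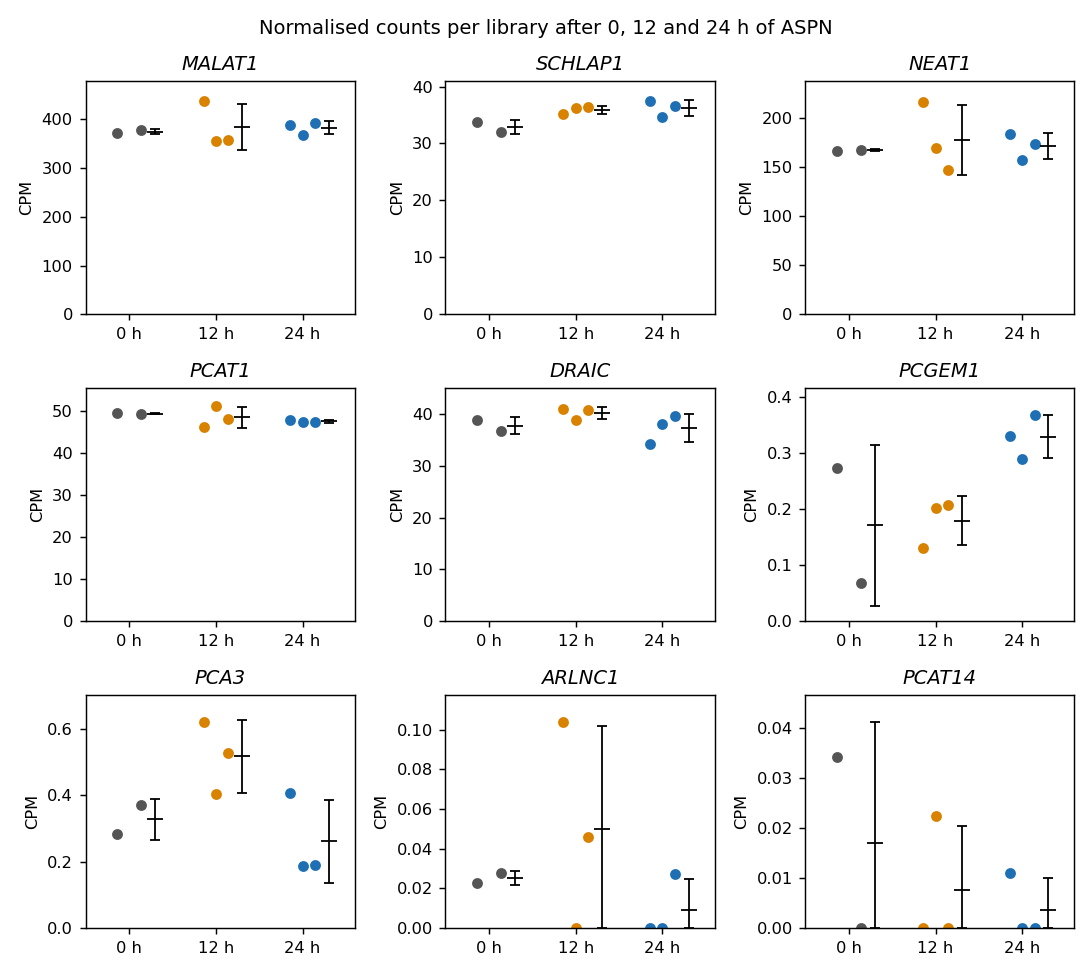
TMM-scaled CPM of each lncRNA in each library, in a panel per gene with its own axis, grouped by time with ASPN, with points for libraries, a horizontal line for the mean and whiskers for its SD, cut off at 0. SCHLAP1 is the only well-counted lncRNA of the set with both 0 h libraries below all others, and MALAT1 and NEAT1 share their highest library, 12 h replicate 1.

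No difference of MALAT1 or NEAT1 between times was larger than the spread of their libraries. MALAT1 was at 371 and 378 CPM at 0 h, at 438, 356 and 358 CPM at 12 h, and at 388, 368 and 392 CPM at 24 h. NEAT1 was at 167 and 168 CPM at 0 h, at 217, 170 and 147 CPM at 12 h, and at 184, 158 and 173 CPM at 24 h. For both RNAs the 12 h libraries spanned the whole range, with replicate 1 the highest of all 8 libraries. The 24 h to 0 h fold was 1.02 for MALAT1 (95% CI 0.927 to 1.13, edgeR adjusted p = 0.825) and 1.02 for NEAT1 (0.759 to 1.38, adjusted p = 0.936). At 12 h against 0 h the folds were 1.03 for MALAT1 (0.930 to 1.13, adjusted p = 0.813) and 1.06 for NEAT1 (0.785 to 1.43, adjusted p = 0.836), and between 24 h and 12 h they were 0.997 (0.914 to 1.09, adjusted p = 0.990) and 0.966 (0.738 to 1.26, adjusted p = 0.938). The libraries at 12 h were at 178 ± 35.5 CPM (SD, n = 3) for NEAT1 and at 384 ± 46.7 CPM (SD, n = 3) for MALAT1.

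MALAT1 and NEAT1 shared their highest library, 12 h replicate 1, but the other libraries did not rank alike for both. NEAT1 amounted to 41.0% to 49.5% of the MALAT1 counts. TALAM1, an lncRNA gene on the opposite strand that is absent from the count table, covers 81.6% of MALAT1 exon bases. The strand option was not stated, and how much of the MALAT1 count comes from TALAM1 was not tested. Over the 8 libraries Pearson's r between their log2 CPM was 0.904 (exact two-sided permutation p = 0.00479, 0.101 when adjusted over the 21 pairs of tested lncRNAs) and Spearman's rho was 0.738 (exact permutation p = 0.0458, adjusted 0.481). Without 12 h replicates 1 and 2, the libraries farthest from the median of MALAT1, r was 0.918 over 6 libraries. Of these, 12 h replicate 2 was the lowest for MALAT1 (356 CPM) but not for NEAT1 (170 CPM), so leaving it out can raise r. How far r rests on 12 h replicate 1 alone was not tested. The relation did not pass the adjustment. The next strongest pairs were PCAT1 and MALAT1 (r = -0.719, exact permutation p = 0.0441, adjusted 0.334) and SCHLAP1 and PCGEM1 (r = 0.711, exact permutation p = 0.0477, adjusted 0.334). Both weakened without the 2 farthest libraries, to -0.216 and 0.472. The lncRNA share of all counts was 1.38% in 12 h replicate 1, within the range of the other libraries, and the mitochondrial share was 6.58%, also within it.

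**Figure D5:**
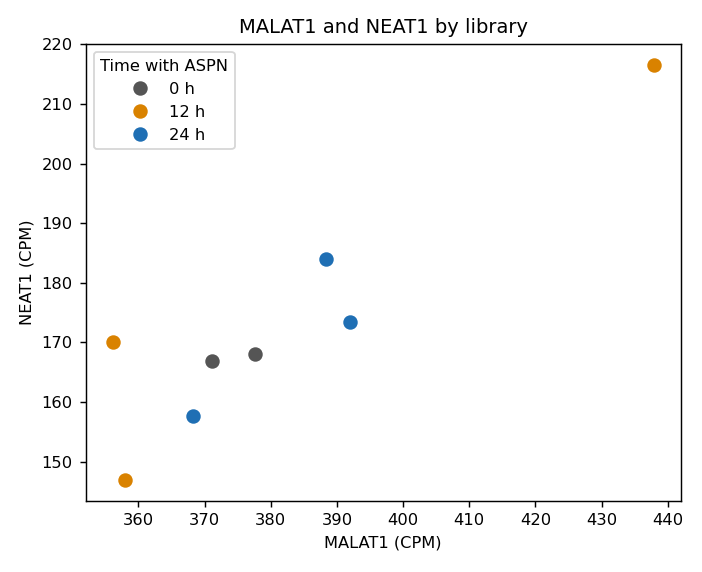
NEAT1 against MALAT1 in CPM, with a point for each library colored by time with ASPN and axes that do not start at 0. The upper right point is 12 h replicate 1, at 438 CPM for MALAT1 and 217 CPM for NEAT1, and the 3 times do not separate.

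Genes for proteins that reside in the same nuclear bodies as NEAT1 and MALAT1 were counted in the same fit. Of 28 genes for paraspeckle proteins, 2 rose and 2 fell at 12 h and 5 rose and 5 fell at 24 h against 0 h on the adjusted p alone, where 4.85% of all genes rose and 6.75% fell at 12 h and 7.82% rose and 8.49% fell at 24 h. Between 24 h and 12 h, 1 rose (1.12% of all genes) and 0 fell (1.61%). The median log2 fold change of the list was -0.00060, 0.058 and 0.015 in the 3 comparisons, beside -0.00070, -0.0031 and 0.0035 for all genes. SFPQ, which is needed for paraspeckles to form, rose by a log2 value of 0.17 at 12 h (SE 0.052, edgeR adjusted p = 0.0297) and 0.20 by 24 h (SE 0.052, adjusted p = 0.00673). RBM7 fell by 0.31 at 12 h (SE 0.071, adjusted p = 0.00312) and RBM3, a cold-shock RNA-binding protein, fell by 0.19 at 24 h (SE 0.044, adjusted p = 0.00258). Of 22 genes for nuclear speckle proteins, 4 rose at 12 h and 5 at 24 h and none fell against 0 h, while 1 fell between 24 h and 12 h. Their medians were 0.041, 0.038 and 0.040. Most genes of both lists, and of the androgen and partner lists below, had high counts. The shares beside them cover all tested genes, including those with few counts. Shares among genes of like count were not computed. SRRM1, a splicing coactivator, rose by 0.24 at 24 h (SE 0.050, adjusted p = 0.000712). U2AF2, which binds the polypyrimidine tract, rose by 0.16 at 12 h (SE 0.044, adjusted p = 0.0149), and ACIN1 rose by 0.17 (SE 0.048, adjusted p = 0.0181). None of these genes reached a fold of 1.5. Without 0 h replicate 1 the 12 h values of SFPQ, RBM7, U2AF2 and ACIN1 were lost (adjusted p 0.433, 0.157, 0.406 and 0.417), as was that of SFPQ at 24 h (0.206). With GC and length correction the 12 h value of U2AF2 was 0.054 (adjusted p = 0.371). In a fit to 0 and 12 h alone U2AF2 (0.0665), ACIN1 (0.0644) and SFPQ (0.0868) were lost at 12 h. The 12 h value of SFPQ was also lost with GC and length correction (0.0755) and without 12 h replicate 2 (0.174) or 3 (0.0534) or 24 h replicate 3 (0.0538), while RBM3 and SRRM1 at 24 h kept an adjusted p of at most 0.0379 in all 15 alternatives.

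Because ARLNC1, PCGEM1, PCAT14 and DRAIC are described as androgen-regulated, a list of genes for androgen response and prostate lineage factors was counted beside them. Of 23 such genes, 9 rose and 1 fell at 12 h, where 4.85% of all genes rose and 6.75% fell. At 24 h 12 rose and 2 fell, where 7.82% of all genes rose and 8.49% fell, and between 24 h and 12 h 2 rose and 3 fell (1.12% and 1.61% of all genes). The medians were 0.10, 0.14 and 0.015. KLK3, which encodes prostate-specific antigen, rose by a log2 value of 0.49 at 12 h (SE 0.048, edgeR adjusted p = 3.37e-08) and 0.31 by 24 h (SE 0.048, adjusted p = 1.71e-05), and it fell by 0.18 between 12 h and 24 h (SE 0.043, adjusted p = 0.0129). GATA2, a pioneer transcription factor of the prostate lineage, rose by 0.31 at 12 h (SE 0.044, adjusted p = 1.27e-05) and 0.35 by 24 h (SE 0.044, adjusted p = 5.65e-07), and KLK4 by 0.31 (SE 0.052, adjusted p = 7.74e-05) and 0.34 (SE 0.052, adjusted p = 9.46e-06). The fall of KLK3 was lost without 12 h replicate 3 (0.0663) or 24 h replicate 1 (0.0912) or 2 (0.163), while its rises and those of GATA2 and KLK4 passed in all 15 alternatives. The well-counted DRAIC did not pass in either direction, and the 95% CI of PCGEM1 at 24 h, a fold of 0.853 to 4.11, leaves its change undetermined.

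Genes described as partners of the lncRNAs were counted in the same way. Of 14 such genes, 3 rose and 0 fell at 12 h (4.85% and 6.75% of all genes), 2 rose and 1 fell at 24 h (7.82% and 8.49%), and 0 rose and 1, PRUNE2, fell between 24 h and 12 h (1.12% and 1.61%). The medians were 0.034, 0.051 and -0.019. SMARCA4, the SWI/SNF ATPase, rose by 0.23 at 12 h (SE 0.049, edgeR adjusted p = 0.00137) and 0.18 by 24 h (SE 0.049, adjusted p = 0.0103), and both were lost without 0 h replicate 1 (0.159 and 0.404), and the 24 h value also without 24 h replicate 1 (0.0762) and with GC and length correction, where it was 0.068 (0.186). SMARCB1, the SWI/SNF subunit described as bound by SCHLAP1, differed by 0.077 (SE 0.046, adjusted p = 0.336) and 0.038 (SE 0.046, adjusted p = 0.669) and did not pass. EZH2, the Polycomb methyltransferase, fell by 0.28 at 24 h (SE 0.059, adjusted p = 0.000986).

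Other lncRNAs known from prostate cancer were counted for comparison. Of 39 listed, 33 were in the table and 26 were tested. At 12 h 0 rose and 2 fell, at 24 h 1 rose and 3 fell, and between 24 h and 12 h 0 rose and 1 fell, with medians of -0.029, -0.046 and 0.023. Among all tested lncRNA genes, 0.954% rose and 1.57% fell at 12 h, 1.66% rose and 3.43% fell at 24 h, and 0.227% rose and 0.409% fell between 24 h and 12 h. OIP5-AS1, a cytoplasmic sponge of RNA-binding proteins, fell from 183 ± 12.7 CPM at 0 h (SD, n = 2) to 153 ± 6.83 at 12 h and 147 ± 5.85 at 24 h (SD, n = 3), log2 fold changes of -0.26 (SE 0.050, edgeR adjusted p = 0.000520) and -0.32 (SE 0.050, adjusted p = 1.48e-05). NORAD, which binds Pumilio proteins, fell by 0.20 (SE 0.045, adjusted p = 0.00227) and 0.18 (SE 0.045, adjusted p = 0.00421). PVT1, the neighbor of MYC, fell by 0.20 at 24 h (SE 0.059, adjusted p = 0.0150). The 12 h values of OIP5-AS1 and NORAD and the 24 h values of NORAD and PVT1 were lost without 0 h replicate 1 (0.0741, 0.126, 0.132 and 0.127), and PVT1 also without 24 h replicate 1 (0.0589) or 3 (0.0764). KCNQ1OT1, the antisense RNA of an imprinted domain, fell between 12 h and 24 h by 0.52 (SE 0.12, adjusted p = 0.0105), which was lost without 12 h replicate 3 (0.140) or 24 h replicate 2 (0.111) and with GC and length correction, where the value was -0.31 (0.0743). POTEF-AS1 was the only one past both thresholds, at 3 to 28 counts per library, and rose by a log2 value of 2.12 at 24 h (SE 0.67, adjusted p = 0.0261). That call was lost without either 0 h library (0.0661 and 0.156) and without 24 h replicate 2 (0.0508) or 3 (0.0648).

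The nearest protein-coding genes on either side of each lncRNA were read from the same fit. SLC39A10, a zinc importer that lies 2799078 bases from PCGEM1, fell by 1.28 at 12 h (SE 0.15, edgeR adjusted p = 0.00476) and by 1.51 at 24 h (SE 0.15, adjusted p = 0.00153) on the log2 scale. It was the only flanking gene past a fold of 1.5, and the 12 h value was lost without 0 h replicate 1 (0.0763). On the other side of PCGEM1, TMEFF2 rose by 0.14 at 24 h (SE 0.046, adjusted p = 0.0288). TLE3, the corepressor next to DRAIC, rose by 0.23 at 12 h (SE 0.044, adjusted p = 0.000509) and 0.32 by 24 h (SE 0.044, adjusted p = 1.97e-06). MYC, which lies 316384 bases from PCAT1, rose by 0.16 (SE 0.042, adjusted p = 0.00933) and 0.15 (SE 0.042, adjusted p = 0.0118). BCR, next to PCAT14, rose by 0.17 (SE 0.048, adjusted p = 0.0149) and 0.24 (SE 0.048, adjusted p = 0.000463). GCNT1, next to PCA3, rose by 0.23 at 24 h (SE 0.055, adjusted p = 0.00355). UBE2E3, which lies 50309 bases from SCHLAP1, fell by 0.16 at 24 h (SE 0.055, adjusted p = 0.0358), and CWC22 on its other side differed by -0.13 (SE 0.070, adjusted p = 0.245). Without 0 h replicate 1 the values of MYC (0.0663 and 0.0640), TMEFF2 (0.199), UBE2E3 (0.420) and BCR at 12 h (0.261) were lost. With GC and length correction BCR at 12 h was at 0.067 (0.272), and in a fit to 0 and 12 h alone BCR (0.0554) and MYC (0.0516) were lost at 12 h. Leaving out 24 h replicate 1, 2 or 3 in turn lost TMEFF2 (0.0590, 0.101 and 0.0940). UBE2E3 was lost without 24 h replicate 1 (0.176) or 2 (0.112) or 12 h replicate 3 (0.0529) and with GC and length correction (0.0522), and MYC at 24 h without 24 h replicate 3 (0.0608).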

How the data were processed

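RNA from 8 LNCaP samples was made into mRNA libraries (TruSeq) and sequenced as paired 150 bp reads. The deposited values are raw counts per gene: the authors trimmed reads with Cutadapt, aligned them to GRCh38.p13 with STAR and counted them per GENCODE gene with featureCounts. Strand and multi-mapping options were not stated. The authors left out a time-0 library for quality. The number in the second time-0 column name is on none of the time-0 labels, and that library was therefore left unnumbered. The labels say "biological replicate" and the methods say that cells were plated in triplicate wells. Whether these wells belonged to a single experiment was not stated. The p-values therefore measure the spread between these libraries, which may be partly technical.

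Counts were fitted over 8 libraries in edgeR 4.0.16 (R 4.3.3, quasi-likelihood F test) with TMM scaling, filterByExpr and 1 coefficient per time point. Genes were called at a fold of at least 1.5 and an adjusted p of at most 0.05, the study's thresholds. Standard errors are the log2 fold change divided by the root of F, and the biological coefficient of variation was 5.59%. Replicate pairs differed beyond sampling noise (chi-square per degree of freedom 5.32 to 15.2). In simulated data 98.6% of genes changed 2-fold and 43.3% of those changed 1.5-fold were called between 24 h and 0 h (20437 genes tested). A true change of 1.5-fold equals the threshold, so many such genes miss the call by their estimated fold. Of those changed 1.5-fold, 92.5% passed on the adjusted p alone. The changed genes were well counted and had a common spread, so these shares do not cover PCA3 and PCGEM1 with their low counts. Nor do they cover NEAT1, whose SE at 12 h was 0.17 against 0.067 for MALAT1. Exon lengths and sequences came from GENCODE release 44 on GRCh38, clipped to the span in the table for MALAT1. Intervals from summed counts cover counting error only, since reads carry no molecular identifiers.

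The lncRNAs, gene lists and tests were chosen with earlier results of these data known. Besides the 9 lncRNAs, the text names for each list the 2 genes with the smallest p in each comparison with 0 h, any listed gene called, and flanking genes with an adjusted p of at most 0.05. Some genes that this rule names are not reported here. BRCA2, KCNQ1OT1, PVT1, SMARCB1, CWC22 and the genes that share exons with a lncRNA were named after their values were seen. Alternatives were RLE and upper-quartile scaling, no filter or a mean of at least 100 counts, DESeq2 1.42.0, compared time points alone, GC and length correction (mgcv 1.9.3), a replicate block and leaving out each library.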

Additional observations from a re-analysis of the deposited data

How the results depend on the processing

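No lncRNA of the 9 was called under any alternative. Of 310 alternative log2 fold changes of the 7 tested lncRNAs, over 21 results and 16 settings, 290 kept their direction and 2 passed on the adjusted p, both of SCHLAP1 with GC and length correction (0.17 at 12 h and 0.19 at 24 h). That correction turned the direction of DRAIC at 24 h against 0 h (0.0018), MALAT1 and NEAT1 between 24 h and 12 h (0.0064 and 0.037), and PCAT1 at 12 h against 0 h (0.00020). Leaving out single libraries turned the direction of values near 0. Their ranges were -0.064 to 0.037 for DRAIC at 24 h, -0.062 to 0.088 for MALAT1 at 12 h, -0.073 to 0.21 for NEAT1 at 12 h, -0.018 to 0.095 for NEAT1 at 24 h, -0.067 to 0.014 for PCAT1 at 12 h and -0.58 to 1.37 for PCGEM1 at 12 h, all against 0 h. Between 24 h and 12 h they were -0.056 to 0.095 for MALAT1, -0.17 to 0.11 for NEAT1, -0.067 to 0.011 for PCAT1 and -0.010 to 0.037 for SCHLAP1. MALAT1 and NEAT1 changed sign at 12 h without 12 h replicate 1, PCGEM1 without the unnumbered 0 h library or 12 h replicates 2 or 3. Apart from the corrections named, the cause was not tested.

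Of all genes, 2443, 3437 and 574 passed on the adjusted p alone between 12 h and 0 h, 24 h and 0 h, and 24 h and 12 h. DESeq2 called 123 and 23 genes in the first and last comparison, and a mean of at least 100 normalized counts left 140 and 322 in the comparisons with 0 h. Leaving out a library gave 78 to 300, 265 to 567 and 16 to 46 called genes. The lowest were without 0 h replicate 1 (78 and 265) and without 24 h replicate 1 or 2 (16 each), and 20 were called without 12 h replicate 3. Levels by the longest transcript were 36.5 CPM per kilobase for MALAT1, 24.3 for PCAT1, 4.28 for DRAIC, 0.0953 for PCA3 and 0.0103 for ARLNC1. DESeq2 gave no adjusted p for PCA3 and PCGEM1.

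The deviations of same-numbered 12 h and 24 h libraries correlated weakly (r = 0.116, 0.0273 and 0.0318). Libraries with different numbers gave r of -0.092 to 0.067. Values this small cannot decide whether the numbers pair the libraries. 12 h replicate 2 correlated best with 24 h replicate 3 (0.067). The replicate block gave 42 called genes in place of 38 and 0 called lncRNAs, and the log2 fold changes of PCA3 and PCGEM1 were -1.03 (adjusted p = 0.133) and 0.87 (adjusted p = 0.349). For comparisons with 0 h a block was not run, since the number in the second 0 h column name is on no 0 h label. ARLNC1 and PCAT14 lie at the depth limit of 3 counts.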
